A study of Saccharomyces cerevisiae with 7 samples.

Results

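The enzymes of glycolysis, alcohol fermentation, acetate formation and the pentose phosphate pathway of budding yeast (Saccharomyces cerevisiae) were followed in RNA bound to ribosomes. The group was 33 genes taken by symbol from 6341 counted features. It held 8 genes of the upper part of glycolysis down to triosephosphate isomerase, 10 of the lower part down to pyruvate kinase, 6 of fermentation, 3 aldehyde dehydrogenases and 6 of the pentose phosphate pathway. All 33 were listed in every library, all passed the filter on low counts, and their coding lengths ran from 744 to 2964 bases with a median of 1470.

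The study compared the mRNA on ribosomes that lack Rps26, a protein of the small subunit at the mRNA exit channel, with the mRNA on ribosomes that contain it, in 3 biological replicates of each class. Both classes came from a BY4741 strain in which RPS3 and RPS26A stood behind the GAL1 promoter (HisMX6::pGAL1-Rps3, NatMX6::pGAL1-Rps26A), RPS26B was replaced (Rps26B::KanMX6), and the plasmid pCM189--Rps3-TAP carried a tagged Rps3. Cells grew to mid-log phase in galactose medium (YPGal) with 0.2 µg/ml doxycycline and then spent 4 h in glucose medium (YPD) from an OD600 of 0.15, so all 6 libraries share the strain, the change of sugar and 100 µg/ml cycloheximide before harvest. Minus_Rps26 is the RNA of TAP-tagged ribosomes eluted from IgG beads (3 libraries), and Plus_Rps26 is the RNA of untagged ribosomes taken by sucrose gradient from what the beads had not bound (3 libraries). A single library, Rps3_TAP (Rps3-TAP in the labels), came from bead-bound ribosomes of a BY4741 strain with Rps3-TAP::HisMX6 grown in YPD only, with no doxycycline or change of sugar. Cycloheximide was at 100 µg/ml for Rps3_TAP as well. In the comparison of the classes, the way the ribosomes were purified and the tag on Rps3 cannot be told apart from the presence of Rps26. For Rps3_TAP the strain, medium and growth differ as well. Both classes come from the lysate of the same cultures by protocol. Against Rps3_TAP, a lower count in ribosome-bound RNA cannot be told apart from a lower level of the mRNA in the cells, whether fewer cells hold it or each cell holds less.

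Glycolysis splits glucose into pyruvate, and yeast on glucose turns most of that pyruvate into ethanol through pyruvate decarboxylase and alcohol dehydrogenase even when oxygen is present. The pentose phosphate pathway branches off at glucose 6-phosphate and supplies NADPH and ribose 5-phosphate. Many of these steps have isoenzymes from gene duplication, of which 1 usually carries the flux on glucose and the others are used on other carbon sources or in other compartments.

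The bases just before the start codon were deposited with the study, and its title names the Kozak context. They are shown for the 6 genes that passed the test between the classes and for the leading and a weaker isoenzyme of the glyceraldehyde-3-phosphate dehydrogenase, enolase and pyruvate decarboxylase families. Each runs 5′ to 3′ over 20 bases, in the deposited letters. Capitals mark positions -4 to -1, the last base being taken as -1, next to the A of the start codon.
PGK1: tttacaacaaatataaAACA
TPI1: aacacatacataaactAAAA
GPM1: caaacacacatattacAATA
TDH2: acacaaacaaacaaaaCAAA
ADH1: aatcaactatctcataTACA
ADH5: atctacaaaatcaaagCATC
TDH3: aacacacataaacaaaCAAA
TDH1: aaatttacacacaaaaCAAA
ENO2: tactataacatacaatAATA
ENO1: cacacaaacactaaatCAAA
PDC1: acacagtcaaatcaatCAAA
PDC5: acaataacaagaagaaCAAA
All 12 carry A at -3. Over the 33 enzymes, A stood at -3 in 30 genes (90.9%), against 60.8% of 5685 nuclear protein-coding genes. The 3 without it were PFK2 and ALD5, with G, and PYK2, with T. At -4, C was the commonest base (17 genes, 51.5%, against 20% of all genes), A stood in 11 (33.3%, against 43.6%), T in 5 and G in 0, where 14.9% of all genes had G. At -1, 25 had A (75.8%, against 44.5%). The 4 bases CAAA closed the sequence in 9 of the enzymes and in 2.13% of all genes. The 20 bases held a median of 11 A (range 7 to 16) in the enzymes and 8 in all genes. The 3 TDH paralogues share CAAA, as do PDC1, PDC5 and PDC6, so contexts within a family need not be independent of each other. The enolases differ, with CAAA in ENO1 and AATA in ENO2. No relation between these bases and the values below was tested.

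Before the results, the libraries themselves differed. Total counts over features ran from 9605899 to 21405499. Non-coding RNA took 1.67% to 6.995% of all counts in Minus_Rps26 and 7.04% to 26.7% in Plus_Rps26, and ribosomal protein mRNA took 16.5% to 21.9% against 28.7% to 39.3% of protein-coding counts. Plus_Rps26 replicate 1, with 7.04% and 28.7%, lay nearest to Minus_Rps26 in both. RPS26A had 545 to 1075 counts in each depletion-strain library, against 100566 in Rps3_TAP. The part of these differences in the results below was not tested. Replicate 3 of both classes lists 0 alignments that were not unique and the other 5 libraries list 11530659 to 18980582, so the split of reads between near-identical paralogues such as TDH2 and TDH3 is uncertain.

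The enzymes as a group took a smaller share of protein-coding counts on Minus_Rps26 ribosomes. Their share was 5.65%, 5.04% and 5.74% in the 3 Minus_Rps26 libraries and 6.99%, 6.51% and 9.15% in the 3 Plus_Rps26 libraries. The groups did not overlap, and the means were 5.48% ± 0.382 (SD, n = 3) and 7.55% ± 1.41 (SD, n = 3). An exact two-sided permutation test gave p = 0.1, the smallest that 3 libraries against 3 allow. With all feature counts as the denominator the means were 5.25% and 6.17% and the groups overlapped (exact permutation p = 0.2). In Rps3_TAP the 33 enzymes took 14.9% of protein-coding counts. The 95% Wilson interval of each share was at most 0.019 percentage points to either side, and it covers counting error only.

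Levels are given below as CPM, counts scaled to library size by the trimmed-mean method over the 7 libraries, and between genes as CPM per kb of coding length. Per kb, FBA1 (aldolase) led in Minus_Rps26 replicate 1 at 4962, followed by PDC1 at 4160 and CDC19 at 3731. In Minus_Rps26 replicates 2 and 3 PDC1 led. In Plus_Rps26 the leading gene was FBA1, TPI1 and GPM1 in replicates 1, 2 and 3, and in Rps3_TAP GPM1 at 30850 stood before FBA1 at 25275. The order among these leading genes therefore changed between libraries of a class. At the other end PDC6 and TKL2 took the lowest 2 places in each of the 7 libraries, with 16 to 138 counts a library.

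**Figure D1:**
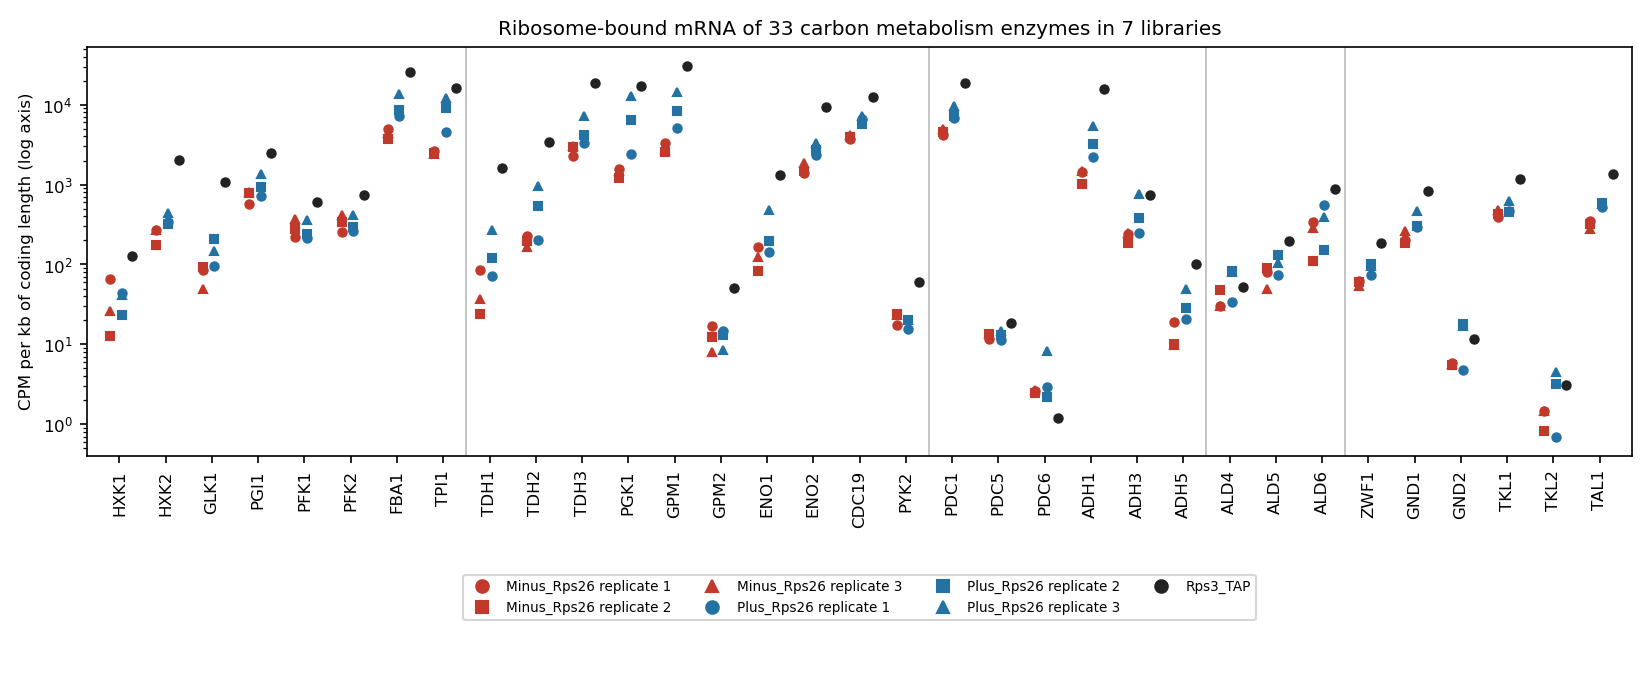
Level of each of the 33 enzymes, in CPM per kb of coding length on a log axis, in 7 libraries; each point is 1 library, red for Minus_Rps26, blue for Plus_Rps26 and black for Rps3_TAP. Grey lines part the upper part of glycolysis, the lower part, fermentation, acetate and the pentose phosphate pathway, in that order. The black point is the highest for 28 of 33 genes.

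The comparison of Minus_Rps26 with Plus_Rps26 addresses which mRNAs sit on either class of ribosome. Of the 33 enzymes, 6 were lower on Minus_Rps26 ribosomes and 0 were higher at an adjusted p under 0.05 (edgeR quasi-likelihood test, Benjamini-Hochberg adjustment over 5668 features). Over all features tested, 16% were called, 7.90% as lower and 8.10% as higher. The 6 were the glycolytic genes TPI1, TDH2, PGK1 and GPM1 and the alcohol dehydrogenases ADH1 and ADH5. The median log2 fold change of the 33 was -0.81, against 0.03 over all features. Equal replicate numbers were taken to mark 1 lysate, and with the number as a block 0 of the 33 and 0 of all features were called, with 13 enzymes and 1990 features at an unadjusted p under 0.05 and a median of -0.77 for the enzymes.

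PGK1, phosphoglycerate kinase, which makes the first ATP of the pathway, showed the largest difference of the 33. On chromosome III at 137746 to 138996 (forward strand, sacCer3), it is a gene of 1251 coding bases. Its level was 1963, 1490 and 1864 CPM in Minus_Rps26 and 3005, 8123 and 16064 CPM in Plus_Rps26. The classes did not overlap, and within Plus_Rps26 replicate 1 lay nearest to the Minus_Rps26 libraries. The fold change was 5.13-fold lower (log2 -2.36 ± 0.55 SE, n = 3 and 3, edgeR adjusted p = 0.0357, and 0.117 with the replicate block).

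TPI1, the triosephosphate isomerase that interconverts the triose phosphates (chromosome IV, 555726 to 556472, reverse strand), read 1957, 1853 and 1798 CPM in Minus_Rps26. It read 3368, 6707 and 9083 CPM in Plus_Rps26. The Minus_Rps26 libraries lay within a narrow band below every Plus_Rps26 library, and the difference was 3.43-fold (log2 -1.78 ± 0.42 SE, edgeR adjusted p = 0.0357, and 0.117 with the block). GPM1, phosphoglycerate mutase (chromosome XI, 163642 to 164385, reverse strand), had 2470.7, 1902 and 2008 CPM against 3766, 6279 and 10759 CPM. It showed the same order, with a 3.27-fold difference (log2 -1.71 ± 0.43 SE, edgeR adjusted p = 0.036, and 0.117 with the block).

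TDH2, a glyceraldehyde-3-phosphate dehydrogenase (chromosome X, 453683 to 454681, reverse strand), differed from these in that the classes overlapped. It had 224, 197 and 165 CPM in Minus_Rps26 and 200.2, 546 and 951 CPM in Plus_Rps26, so that Plus_Rps26 replicate 1 lay inside the Minus_Rps26 range. Its fold change was 2.91-fold lower (log2 -1.54 ± 0.47 SE, edgeR adjusted p = 0.0497, and 0.161 with the block). It was the member closest to the threshold.

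ADH1, the main enzyme that reduces acetaldehyde to ethanol (chromosome XV, 159548 to 160594, reverse strand), had 1523, 1053 and 1535 CPM in Minus_Rps26 and 2298, 3323 and 5595 CPM in Plus_Rps26. Its paralogue ADH5 (chromosome II, 533762 to 534817, forward strand) had 20.1, 10.6 and 10.2 CPM against 22.2, 29.8 and 52.2 CPM. On the trimmed-mean scale neither gene overlapped between the classes, although ADH5 came close in replicate 1. ADH1 was 2.74-fold lower (log2 -1.45 ± 0.40 SE, edgeR adjusted p = 0.04, and 0.117 with the block), and ADH5 was 2.55-fold lower (log2 -1.35 ± 0.41 SE, edgeR adjusted p = 0.0482, and 0.127 with the block).

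The other 27 enzymes did not pass the test, and 23 of them had log2 fold changes below 0. In the upper part of glycolysis, 1 of 8 genes was called (TPI1) and the log2 fold changes ran from -1.78 to 0.09. The subunits of phosphofructokinase, PFK1 and PFK2, were at 0.09 and 0.04, and the aldolase FBA1 was at -1.18 (edgeR adjusted p = 0.0574). FBA1 had 5359, 4015 and 4745 CPM in Minus_Rps26 and 7780, 9359 and 14622 CPM in Plus_Rps26, with no overlap on the trimmed-mean scale. PGI1, phosphoglucose isomerase, was at -0.47. The hexose kinases HXK1, HXK2 and GLK1 were at -0.04, -0.62 and -0.99.

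In the lower part, 3 of 10 genes were called. TDH1 was at -1.68 (edgeR adjusted p = 0.0552), TDH3, the leading isoenzyme, at -0.85, and the enolases ENO1 and ENO2 at -1.14 and -0.84. TDH3 had 2293, 2952 and 2996 CPM in Minus_Rps26 and 3283, 4202 and 7272 CPM in Plus_Rps26. ENO2 had 1809, 1955 and 2412 CPM against 3069, 3558 and 4376 CPM. On the trimmed-mean scale both of these abundant mRNAs were lower in every Minus_Rps26 library than in every Plus_Rps26 library without passing the test. The main pyruvate kinase gene CDC19 had 5607, 5926 and 6333 CPM against 9905, 8498 and 10848 CPM (log2 -0.72, edgeR adjusted p = 0.153), again without overlap on this scale. Its glucose-repressed paralogue PYK2 was at 0.21 and GPM2, a paralogue of GPM1, at 0.04.

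In fermentation, 2 of 6 genes were called. PDC1, the main pyruvate decarboxylase, had 7039, 7684 and 8450 CPM in Minus_Rps26 and 11411, 12248 and 16068 CPM in Plus_Rps26. On the trimmed-mean scale there was no overlap, with a log2 fold change of -0.78 (edgeR adjusted p = 0.139). PDC5 was at -0.02, PDC6 at -0.81 and the mitochondrial ADH3 at -1.05. Of the aldehyde dehydrogenases, which make acetate, 0 of 3 were called: the mitochondrial ALD4 and ALD5 were at -0.86 and -0.48 and the cytosolic ALD6 at -0.59. ALD6 had 510, 164 and 430.0 CPM in Minus_Rps26 and 845, 227 and 594 CPM in Plus_Rps26, so replicate 2 was the lowest in both classes.

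In the pentose phosphate pathway 0 of 6 genes were called, with log2 fold changes from -1.23 to -0.28. ZWF1, glucose 6-phosphate dehydrogenase, was at -0.63, the 6-phosphogluconate dehydrogenases GND1 and GND2 at -0.72 and -1.23, the transketolases TKL1 and TKL2 at -0.28 and -1.16, and the transaldolase TAL1 at -0.81. TAL1 had 358, 324 and 280.0 CPM in Minus_Rps26 and 526, 587 and 569 CPM in Plus_Rps26. On the trimmed-mean scale this was a separation with little spread inside either class (edgeR adjusted p = 0.0592). With total counts TAL1 was at -0.05 (edgeR adjusted p = 0.92).

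Over the 6 libraries on the trimmed-mean scale, 16 of 33 enzymes had every Minus_Rps26 library below every Plus_Rps26 library. The reverse order was seen in 0, and 17 overlapped. Of all features tested, 17.3% had the first order and 21.0% the reverse. The size of the difference depended on the replicate. The median log2 ratio of the enzymes was -0.16, -0.85 and -1.06 in replicates 1, 2 and 3, against 0.01, 0.03 and 0.11 over all features tested. In the 3 replicates 22, 28 and 31 of the 33 ratios were below 0, and for 25 genes the ratio of replicate 1 was the nearest to 0. For PGK1 the 3 log2 ratios were -0.61, -2.46 and -3.12, and for TDH2 they were 0.17, -1.48 and -2.53. PYK2 kept nearly the same ratio in all 3, at 0.19, 0.21 and 0.21, as did ENO2, at -0.76, -0.88 and -0.87. Without Plus_Rps26 replicate 1, 20 of the 33 were called, all lower, where 2495 of 5717 features were called and 21.4% were lower. Without any other single library of the 6 the count was 0, with 9 to 12 at an unadjusted p under 0.05. Over all features 214 were called without Minus_Rps26 replicate 1, 0.616% as lower, and 0 without any of the other 4.

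The scale of the libraries sets the sign of many of these values. With total counts in place of trimmed-mean scaling, the median of all features moved to 0.75 and that of the enzymes to 0.02. Relative to the median of all features, the enzymes' median was -0.84 with the trimmed mean and -0.73 with total counts, and 29 of 33 lay below that median under either. With total counts 2 enzymes were called, PGK1 and TPI1, both lower, and the calls over all features moved from 459 higher and 448 lower to 1042 higher and 37 lower (0.653%). Separation of the classes depended on the scale as well. Pyruvate kinase took 0.882%, 0.860% and 0.930% of protein-coding counts in Minus_Rps26 and 1.26%, 0.788% and 0.935% in Plus_Rps26. That step overlapped, as did enolase, glyceraldehyde-3-phosphate dehydrogenase and pyruvate decarboxylase. Aldolase, triosephosphate isomerase, phosphoglycerate kinase, phosphoglycerate mutase and alcohol dehydrogenase stayed lower in every Minus_Rps26 library, and phosphofructokinase was higher in each. How many of all genes separate by such shares was not computed. For PFK1 and PFK2 the classes overlapped on the trimmed-mean scale, with log2 fold changes of 0.09 and 0.04. Total counts put these genes 0.15 and 0.10 above the median of all features. Corrected for coding length, their values were -0.89 and -0.91.

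**Figure D2:**
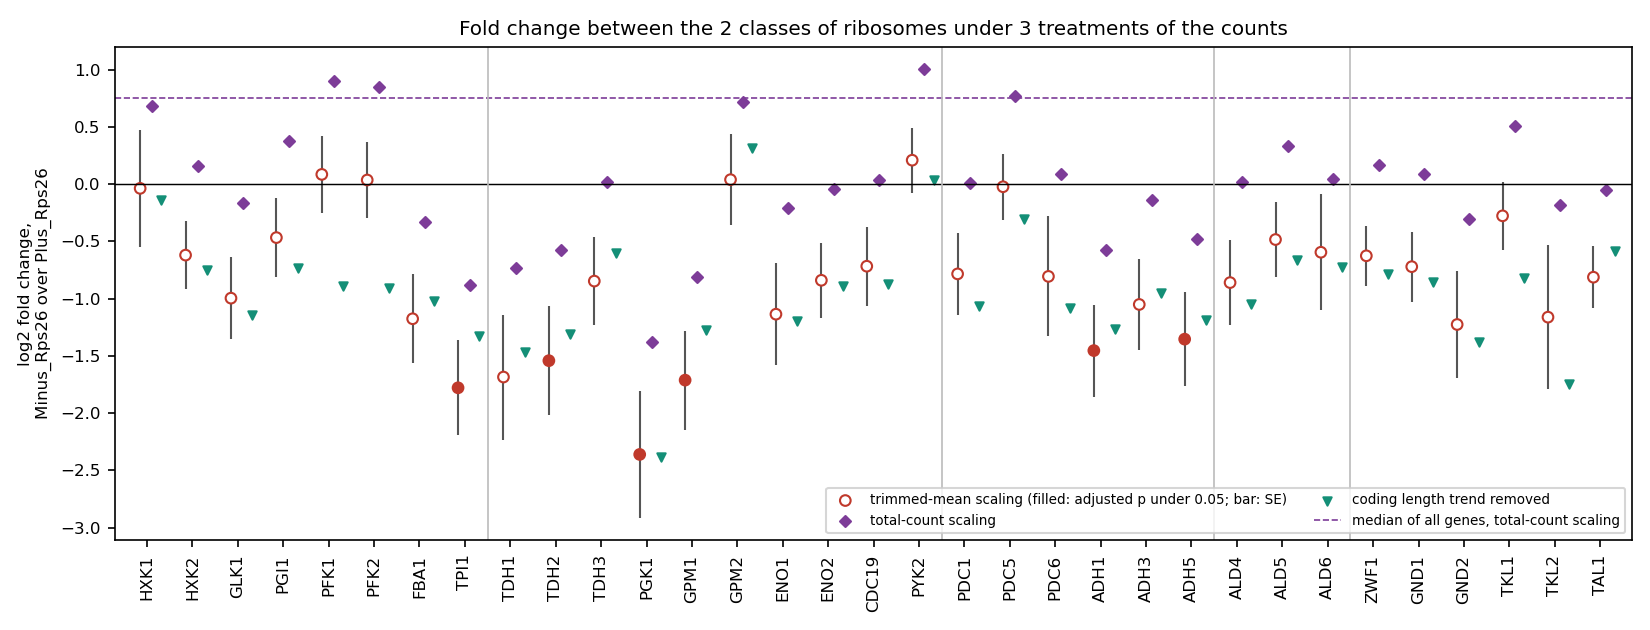
Log2 fold change of Minus_Rps26 over Plus_Rps26 (3 libraries each) for the 33 enzymes. Circles are the trimmed-mean values with SE bars, filled for the 6 genes with an edgeR adjusted p under 0.05; diamonds are total-count values, to be read against the dashed line at 0.75, the median of all features on that scale; triangles are the values after the coding length trend was removed. PFK1 and PFK2 move from near 0 to -0.89 and -0.91 once length is taken out.

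Fold changes between the classes followed coding length in the whole table. Across 5535 nuclear protein-coding genes Spearman's rho between length and log2 fold change was 0.69, and across the 33 enzymes it was 0.61; genes share libraries and are not independent replicates, so these are descriptions. The enzymes were longer than the typical gene, whose median was 1224 bases, and the 3739 nuclear protein-coding genes tested within the enzymes' range of lengths had a median log2 fold change of 0.14. The longest enzymes, PFK1 at 2964 and PFK2 at 2880 bases, were near 0, and the short TPI1 and GPM1, at 747 and 744 bases, were among the lowest. With each library's trend on length removed, the median of the enzymes was -0.91, 31 of 33 were below 0 and the range was -2.38 (PGK1) to 0.31 (GPM2). In that fit 0 enzymes and 0 features were called, with 25 enzymes and 1043 features at an unadjusted p under 0.05.

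**Figure D3:**
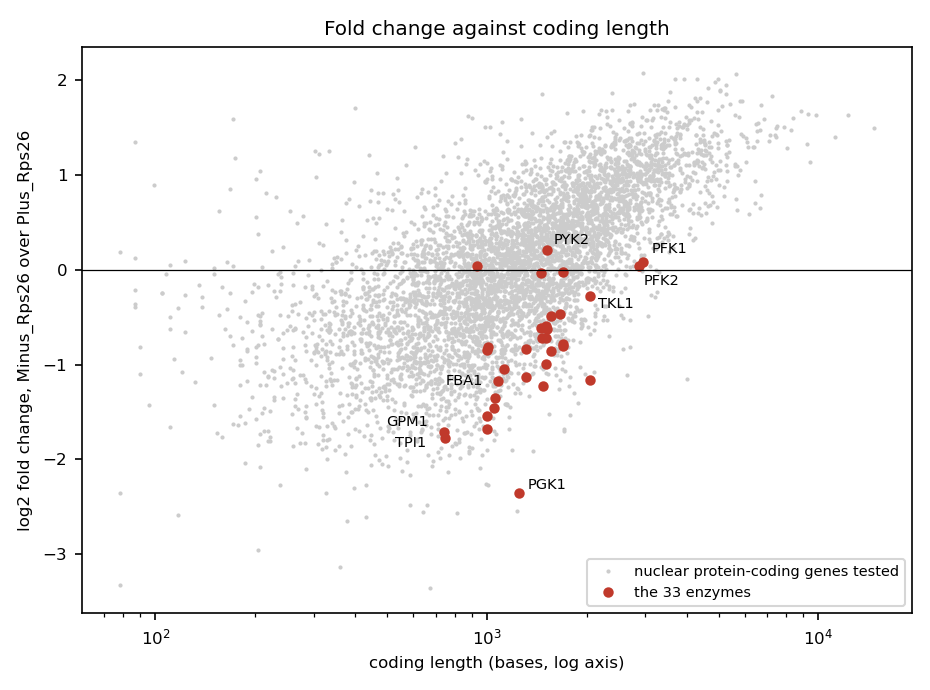
Log2 fold change of Minus_Rps26 over Plus_Rps26 against coding length (bases, log axis). Grey points are 5535 nuclear protein-coding genes and red points the 33 enzymes, of which some are named; the enzymes lie mostly in the lower part of the cloud at their length, with PGK1 lowest at -2.36.

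A list of 33 other genes of the same pathways and their transcription factors gave a comparison, of which 30 were tested. Between the classes 5 were lower and 0 were higher, where 7.90% of all features were lower and 8.10% higher. The median log2 fold change of the list was -0.24. The 5 were ADH2, which oxidises ethanol, at -1.79 (edgeR adjusted p = 0.045), SOL2, a relative of the lactonases of the pentose phosphate pathway, at -1.68 (0.0357), the ribose 5-phosphate isomerase RKI1 at -1.25 (0.0365), the lactonase SOL3 at -1.23 (0.0486) and the ribulose 5-phosphate epimerase RPE1 at -1.20 (0.0365). RPE1 had 119.5, 133 and 100.5 CPM in Minus_Rps26 and 182.5, 345.5 and 279 CPM in Plus_Rps26. All 5 lost the call with the replicate block, at adjusted p = 0.117 or, for SOL3, 0.123. With total counts 0 of the list were called lower and 2 higher, with a median of 0.57 against 0.75 over all features. In that fit 1042 features were higher and 37 lower. GCR1, an activator of glycolytic genes, was at 0.99 and did not pass (edgeR adjusted p = 0.056). Its value was 0.04 with the coding length trend removed (edgeR adjusted p = 0.94) and 1.67 with total counts (edgeR adjusted p = 0.036). GCR2 was at 0.905 (edgeR adjusted p = 0.0677), 0.68 with the trend removed and 1.57 with total counts (edgeR adjusted p = 0.041). RAP1, TYE7, CBF1 and REB1 were at 0.69, 0.04, 0.585 and 1.045 and did not pass. With the trend removed they were at -0.05, 0.365, 0.77 and 0.35. In that fit ADH2, SOL2, RKI1, SOL3 and RPE1 were at -1.60, -1.40, -0.83, -0.79 and -0.73, and 0 of the list were called.

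Rps3_TAP gives the level on tagged ribosomes of cells that make Rps26. It is 1 library, so its spread is taken from the other 6 in a fit of all 7 libraries, and both comparisons below share it. In 28 of 33 enzymes all 6 libraries of the depletion strain lay below Rps3_TAP, as they did in 25.5% of the features tested between the classes. The 5 that did not were PDC6, ADH3, ALD4, GND2 and TKL2.

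In Minus_Rps26 against Rps3_TAP, 24 of the 33 enzymes were lower and 0 were higher, where 26.2% of 5815 features were called, 15.6% as lower and 10.6% as higher. The median log2 fold change was -1.93, against 0.18 over all features. All 10 genes of the lower part of glycolysis were called, as were 5 of 8 in the upper part, 4 of 6 in fermentation, 1 of 3 aldehyde dehydrogenases and 4 of 6 in the pentose phosphate pathway. TDH1 stood lowest, with 84.1, 24.1 and 37.0 CPM in Minus_Rps26 and 1599 CPM in Rps3_TAP (log2 -5.05 ± 0.71 SE, edgeR adjusted p = 0.00238). TDH2 had 3406 CPM in Rps3_TAP (log2 -4.12 ± 0.61 SE), and the glucokinase GLK1 had 129, 140 and 75.1 CPM against 1626 CPM (log2 -3.83 ± 0.47 SE, edgeR adjusted p = 0.00196). PGK1, ADH1, GPM1, ENO1 and HXK2 followed at -3.61, -3.57, -3.43, -3.40 and -3.09. Of these, PGK1 had 21707 CPM in Rps3_TAP, ADH1 16239 CPM, GPM1 22952 CPM and ENO1 1723 CPM. TPI1, with 12046 CPM there, was at -2.69, and ADH5, with 105.6 CPM, at -2.95. For the leading isoenzymes of the other steps the Rps3_TAP level was 27297 CPM for FBA1, 18890 CPM for TDH3, 12267 CPM for ENO2, 18950 CPM for CDC19, 31913 CPM for PDC1, 1318 CPM for ALD6 and 1384 CPM for TAL1. All of these lay above every library of the depletion strain. PGI1 had 954, 1316 and 1348 CPM in Minus_Rps26, 1187, 1559 and 2229.5 CPM in Plus_Rps26 and 4176 CPM in Rps3_TAP (log2 -1.79, edgeR adjusted p = 0.0177). ZWF1 and GND1, dehydrogenases of the oxidative branch of the pentose phosphate pathway, were both called, at -1.65 and -1.93. ZWF1 had 95.6, 92.6 and 80.5 CPM, then 112, 155 and 147 CPM, and 281 CPM in Rps3_TAP, and GND1 had 301, 274.5 and 381 CPM, then 434.5, 447 and 686 CPM, and 1212 CPM. TKL1 was called at -1.44, with 791, 870.2 and 969 CPM, then 965, 936 and 1273 CPM, and 2383 CPM. ADH3 was called at -1.71 although Plus_Rps26 replicate 3, at 859 CPM, lay above its 828 CPM in Rps3_TAP. The 9 not called were HXK1, PFK1, PFK2, PDC5, PDC6, ALD4, ALD6, GND2 and TKL2, and PDC6 was the one above 0, at 1.11. With total counts in place of the trimmed mean, 13 of the 33 were called, all lower, with a median of -0.71 against 1.39 over all features. In that fit 147 features were lower (2.53%) and 1644 were higher.

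In Plus_Rps26 against Rps3_TAP, 4 of the 33 enzymes were lower and 0 were higher, where 1.48% of features were called, 1.27% as lower and 0.206% as higher. The 4 were the hexose kinases GLK1, at -2.84 ± 0.47 SE (edgeR adjusted p = 0.0206), and HXK2, at -2.48 ± 0.40 SE (0.0188), with TDH1 at -3.37 (0.0417) and PYK2 at -1.68 (0.0494). HXK2 is the main hexokinase on glucose. It had 397, 259 and 391.9 CPM in Minus_Rps26, 494, 473 and 639 CPM in Plus_Rps26 and 2981 CPM in Rps3_TAP, so both classes were far below the single library. GLK1 had 143, 317 and 223 CPM in Plus_Rps26, with the same order. The median over the 33 was -1.27, against 0.07 over all features, and only PDC6, ALD4 and GND2 were above 0, at 1.91, 0.34 and 0.17 and uncalled. The calls rested on the pooled spread and the scaling: in a fit of the 4 libraries alone 0 enzymes and 4 features were called (13 and 826 at an unadjusted p under 0.05), and with total counts 0 enzymes and 6 features (16 and 916). Without Plus_Rps26 replicate 1, 11 enzymes were called, where 6.54% of features were lower. The count was 1 without Minus_Rps26 replicate 1, and 2 without Minus_Rps26 replicate 3 or without Plus_Rps26 replicate 2, where 0.519%, 0.587% and 1.31% of features were lower.

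**Figure D4:**
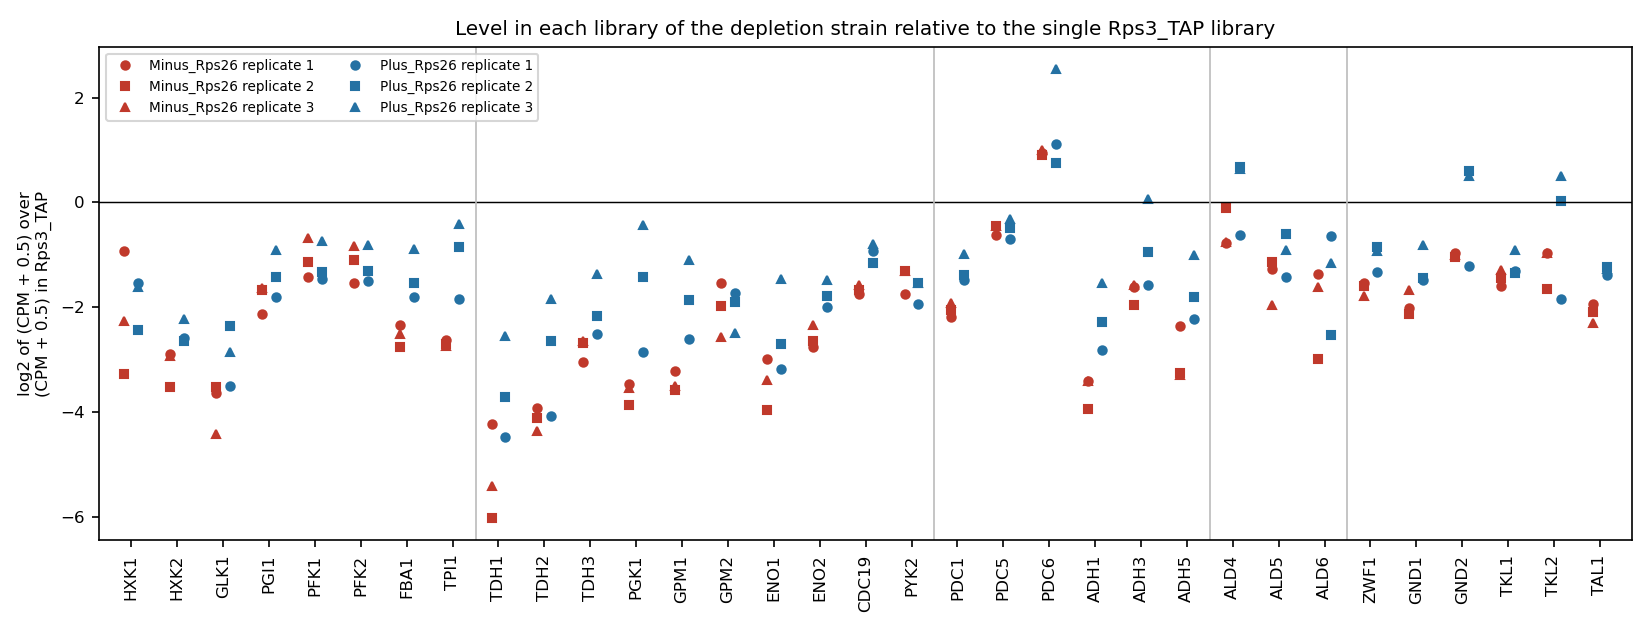
Level of the 33 enzymes in each library of the depletion strain relative to the single Rps3_TAP library, as the log2 ratio of CPM with 0.5 added; red points are Minus_Rps26, blue points Plus_Rps26, and shapes give the replicate. Most points lie below 0, TDH1 reaches the lowest values, and all 6 points of PDC6 lie above 0.

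The ratio of 2 genes of an enzyme family inside a library does not depend on how libraries are scaled. It was computed for 16 pairs, as the log2 ratio of counts with 0.5 added. In 4 pairs the Minus_Rps26 and Plus_Rps26 ratios did not overlap. Each time the minor gene held more relative to the major one on Minus_Rps26 ribosomes. Each of the 4 had an exact two-sided permutation p of 0.1, the smallest possible, which is 0.4 after Benjamini-Hochberg adjustment over the 16, and an exact sign-flip test within replicate numbers gave 0.25, also the smallest possible. The other 12 pairs overlapped, with exact permutation p from 0.3 to 1. Their mean differences went in both directions, from -0.89 for TDH1 against TDH3 to 0.33 for HXK1 against HXK2. No other pairs of genes were set beside the 16, so the share of gene pairs that part in this way is not known. On the trimmed-mean scale the major genes GPM1, CDC19, PDC1 and ADH1 were at log2 -1.71, -0.72, -0.78 and -1.45. Their minor partners GPM2, PYK2, PDC5 and ADH3 were at 0.04, 0.21, -0.02 and -1.05. The 4 ratios restate these fold changes and are not a separate result.

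GPM2 against GPM1 had the widest of the 4 differences. The log2 ratio was -7.27, -7.36 and -8.05 in Minus_Rps26 and -8.09, -8.998 and -10.39 in Plus_Rps26, a mean difference of 1.60. Per kb, GPM2 stood at 0.514%, 0.486% and 0.3002% of GPM1 in Minus_Rps26 and at 0.292%, 0.155% and 0.0590% in Plus_Rps26. The third replicates of the classes differed most, and the closest values across classes lay just apart.

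PYK2 stood at 0.469%, 0.603% and 0.561% of CDC19 per kb in Minus_Rps26 and at 0.233%, 0.359% and 0.281% in Plus_Rps26, a mean log2 difference of 0.92. PDC5 stood at 0.284%, 0.294% and 0.269% of PDC1 in Minus_Rps26 and at 0.166%, 0.181% and 0.156% in Plus_Rps26, a difference of 0.75 with SDs of 0.07 and 0.11. These were the tightest ratios within a class among the pairs that parted. ADH3 stood at 16.5%, 18.7% and 16.7% of ADH1 in Minus_Rps26 and at 11.2%, 11.97% and 14.2% in Plus_Rps26, a difference of 0.48. In Rps3_TAP the same 4 ratios were 0.164%, 0.472%, 0.0981% and 4.73%.

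Other pairs varied more between replicates than between classes. ALD5 stood at 81.8% and 86.0% of ALD6 per kb in replicate 2 of Minus_Rps26 and Plus_Rps26, and at 13.1% to 26.3% in the other 4 libraries of the depletion strain. ALD4 against ALD6 showed the same, at 44.0% and 54.5% in replicate 2 and 5.98% to 20.3% in the other 4. GLK1 likewise was highest relative to HXK2 in replicate 2, at 52.4% and 65.1%. In all 3 pairs the libraries of replicate 2 in both classes were the highest of the depletion strain.

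In the TDH family, TDH3 led in every library. TDH2 stood at 9.77%, 6.66% and 5.51% of TDH3 in Minus_Rps26, at 6.10%, 13.0% and 13.1% in Plus_Rps26 and at 18.0% in Rps3_TAP. TDH1 stood at 3.67%, 0.819% and 1.24%, at 2.17%, 2.88% and 3.75%, and at 8.47%. Both minor genes thus held the most relative to TDH3 in Rps3_TAP, and the classes overlapped. ENO1 stood at 5.63% to 12.02% of ENO2 in Minus_Rps26, 6.19% to 14.2% in Plus_Rps26 and 14.04% in Rps3_TAP, with overlap. PFK1 and PFK2, the subunits of 1 enzyme, kept nearly the same ratio everywhere: PFK1 stood at 79.8% to 90.8% of PFK2 per kb in all 7 libraries. PDC6 stood at 0.0308% to 0.0881% of PDC1 in the depletion strain and 0.00648% in Rps3_TAP, where it had 20 counts.

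**Figure D5:**
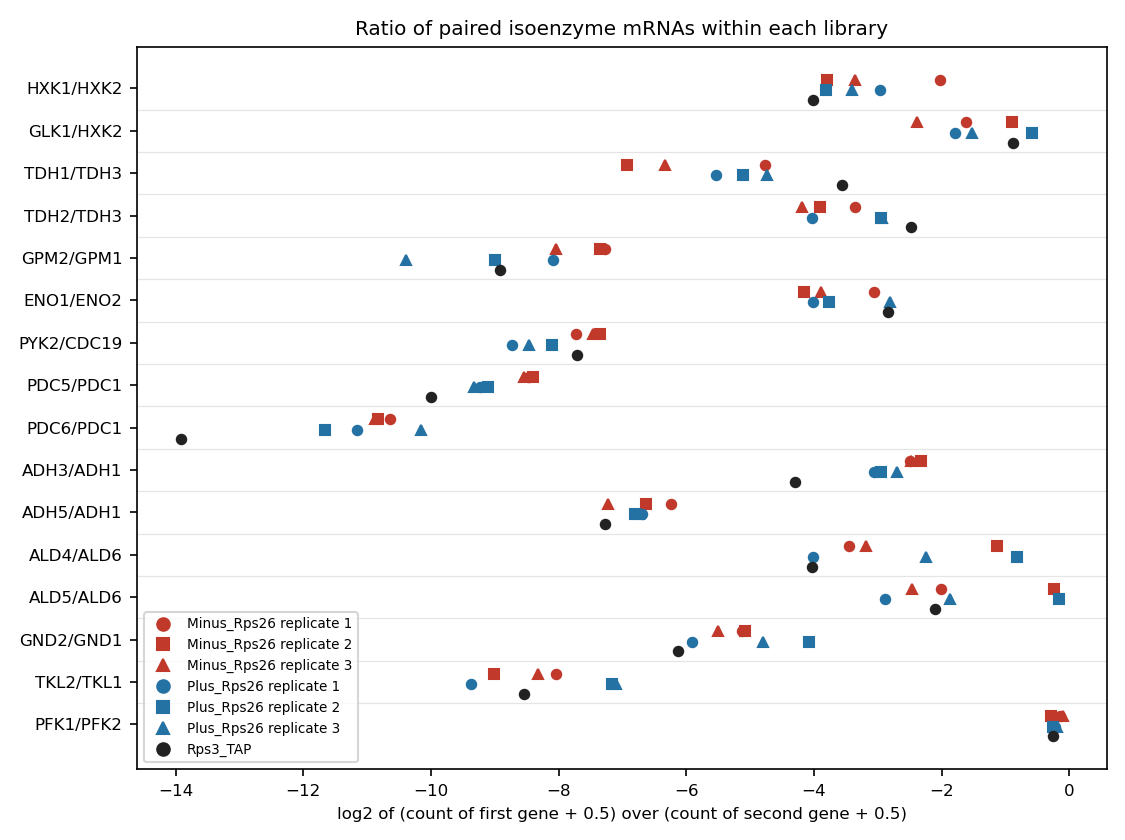
Log2 ratio of counts of paired genes of an enzyme family, with 0.5 added, in each of 7 libraries. Red points are Minus_Rps26, blue points Plus_Rps26, the black point Rps3_TAP, and shapes give the replicate. Red and blue part in GPM2/GPM1, PYK2/CDC19, PDC5/PDC1 and ADH3/ADH1, and the squares of replicate 2 lie together, apart from the rest, in ALD4/ALD6 and ALD5/ALD6.

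The authors' deposited tables, which give log2 fold changes and adjusted p-values of the same comparisons, hold 18 of the 33 enzymes as lower in Minus_Rps26 than in Plus_Rps26 at an adjusted p under 0.05 and 0 as higher, where 15.7% of the 5519 features with an adjusted p are lower. For the comparison of Minus_Rps26 with Rps3_TAP the authors' deposited table holds 28 as lower, where 24.5% of features are lower. For that of Plus_Rps26 with Rps3_TAP the authors' deposited table holds 10, where 2.60% are lower, and none is higher in either table. In the normalized sheet deposited for Minus_Rps26 and Rps3_TAP, the columns headed Elu1 and Elu3 were equal in all 5898 rows. The 28 may therefore rest on fewer separate Minus_Rps26 libraries than were sequenced.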

How the data were processed

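Libraries were stranded and made after removal of ribosomal RNA from the RNA on ribosomes, per the labels' protocols. For every library the authors deposited raw counts, 1 per feature. TopHat2 2.0.9, the build sacCer3, DESeq and DESeq2 are named in the submitters' processing notes, and no source used here gives the counting program or its strand setting, so overlapping and antisense genes could not be told apart. Result tables deposited by the authors give a log2 fold change and an adjusted p-value for each gene, per the file headers. A deposited sheet of normalized values (a signal: counts divided by a factor per library) was compared column with column but not tested, and 10 per-sample columns of the deposited workbooks were not used. Lines for reads in no feature stayed out of library sizes and tests. Names, coordinates and coding lengths came from RefSeq's gene table for R64, which is the sequence of sacCer3: a symbol or locus tag matched 6052 features, a synonym 47, and 242 had no match.

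Fold changes were tested in R 4.3.3 by the quasi-likelihood test of edgeR 4.0.16 after its default low-count filter and trimmed-mean scaling, and p-values were adjusted by Benjamini-Hochberg with a threshold of 0.05. The SE is the fitted log2 ratio over the root of its F value. The classes were fitted on their 6 libraries and both comparisons with Rps3_TAP on all 7. DESeq2 1.42.0, limma-voom 3.58.1, other scalings and filters, the length trend removed (lowess, span 0.3), a replicate block and each library left out were tried as alternatives. Scripts were tested on simulated data. Counts per library, 9605899 to 21405499 in total, limit the precision of the rarest genes.

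The eluate and the flowthrough come from 1 lysate by protocol, and equal numbers were taken to mark the same lysate; over genes, deviations from the class means correlated at -0.20, 0.45 and 0.01 in replicates 1, 2 and 3. Plus_Rps26 replicate 2 is described as FT1 in the labels, but its title gives 2, which was used. The 33 members and the list of related genes were chosen with earlier results of these data known. All members were named; values in every library are given for those called between the classes and for leading isoenzymes, and as ratios for pairs; the others are given by fold changes, ranges and counts, and the called genes of the related list were named.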

Additional observations from a re-analysis of the deposited data

How the results depend on the processing

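Between the classes, 6 enzymes and 907 features were called. The enzymes called numbered 0 with the replicate block, 0 with the length trend removed, 0 with both (18 at an unadjusted p under 0.05), 2 with total counts and 17 with DESeq2, and 5 to 9 in the other alternatives that kept every library. Leaving out libraries gave 0 to 20 enzymes and 0 to 2495 features for single libraries. Leaving out both libraries of a replicate gave 17 and 2671 for replicate 1 and 0 and 0 for replicates 2 and 3. Features numbered 0 with the block, 0 with the length trend removed, 0 with both and 1552 with DESeq2. With total counts the median changed sign to 0.02, as did HXK1 (0.68), HXK2 (0.16), PGI1 (0.37), TDH3 (0.02), CDC19 (0.03), PDC1 (0.01), PDC5 (0.77), PDC6 (0.09), ALD4 (0.02), ALD5 (0.33), ALD6 (0.04), ZWF1 (0.17), GND1 (0.09) and TKL1 (0.51). PFK1 and PFK2 changed sign to -0.89 and -0.91 with the length trend removed and to -0.83 and -0.85 with the block as well; PFK2 was -0.01 with DESeq2 and -0.02 with its size factors, and GPM2 -0.01 with those factors and -0.04 with limma-voom. Without single libraries or replicates, signs changed within -0.89 to 0.37 for HXK1, -0.13 to 0.29 for PFK1, -0.16 to 0.22 for PFK2, -0.25 to 0.28 for GPM2 and -0.18 to 0.05 for PDC5.

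Against Rps3_TAP, Minus_Rps26 gave 13 enzymes with total counts (median -0.71), a median of -2.01 with DESeq2 and -2.15 with the length trend removed, and 2359 features with 4 libraries or 716 with the length trend removed; libraries left out gave medians of -2.15 to -1.86, 18 to 29 enzymes and 615 to 2405 features. With total counts PFK1 (0.16), PFK2 (0.08), PDC5 (0.69), ALD4 (0.70) and GND2 (0.16) changed sign. Plus_Rps26 gave 0 enzymes and 4 features with 4 libraries, 0 and 6 with total counts (median -0.84; TKL2 0.09) and 13 and 434 with DESeq2; libraries left out gave 1 to 11 enzymes and 29 to 586 features, GND2 from -0.12 to 0.57 and TKL2 from -0.69 to 0.32.

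Pairs of genes of an enzyme family that did not overlap numbered 4 to 7 with a library left out, and 7 without Plus_Rps26 replicate 1. Leaving out a library can only keep or raise this number, so it is no check on the 4. Differences of pairs that changed sign ran from -0.19 to 0.70 for HXK1/HXK2, -0.71 to 0.04 for GLK1/HXK2, -0.49 to 0.19 for ENO1/ENO2, -0.13 to 0.63 for PDC6/PDC1, -0.18 to 0.31 for ADH5/ADH1, -1.05 to 0.54 for ALD4/ALD6, -0.60 to 0.81 for ALD5/ALD6 and -0.80 to 0.12 for GND2/GND1. The cause of these changes was not tested. Depth limits most the values of TKL2 and PDC6, with 16 to 138 counts a library.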

Other observations

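In the authors' deposited normalized sheet for the comparison of Minus_Rps26 with Rps3_TAP, the columns headed Elu1 and Elu3 were equal in all 5898 rows, and the mean listed in the authors' deposited table equalled the mean of the 4 deposited columns in 5898 rows, within a relative difference of 1e-06. In the count files Minus_Rps26 replicates 1 and 3 were equal in 295 of 6341 features. That deposited comparison held 28 of the 33 enzymes as lower, and the fit of the count files called 24. The deposited 28 may rest on fewer separate Minus_Rps26 libraries than were sequenced.

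Of the 30 related genes set against Rps3_TAP, 9 were called lower and 1 higher in Minus_Rps26, and 1 lower and 0 higher in Plus_Rps26. The lower calls in Minus_Rps26 were EMI2 (log2 -2.81), PGM2 (-2.56), RPE1 (-2.44), SOL3 (-2.19), SOL2 (-2.09), SOL4, ACS1 (-1.64), PGM1 (-1.56) and ACS2 (-1.37). EMI2 is a paralogue of the glucokinase GLK1, PGM1 and PGM2 are phosphoglucomutases, and ACS1 and ACS2 make acetyl-CoA from acetate. With total counts 1 was called lower and 4 higher in Minus_Rps26. CBF1, a DNA-binding regulator, was called higher in Minus_Rps26 (log2 1.44, edgeR adjusted p = 0.0353), and SOL4, a lactonase of the pentose phosphate pathway, was called lower in Minus_Rps26 (log2 -1.86, edgeR adjusted p = 0.0107) and in Plus_Rps26 (log2 -1.98, edgeR adjusted p = 0.0417). SOL4 had 12.5, 9.81 and 10.1 CPM in Minus_Rps26, 9.91, 9.57 and 10.2 CPM in Plus_Rps26 and 39.1 CPM in Rps3_TAP, so the classes lay together and well below the single library. ADH2, the alcohol dehydrogenase that is repressed on glucose, lay the other way, with 6.33, 10.2 and 7.67 CPM, then 8.31, 31.4 and 44.0 CPM, and 2.62 CPM in Rps3_TAP.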
